A study of Mus musculus with 6 samples.

Results

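The Sox family of transcription factors was followed in the mouse lens transition zone, where epithelial cells stop dividing and turn into elongating fibre cells. The members were the 9 genes Sox1, Sox2, Sox4, Sox5, Sox6, Sox8, Sox9, Sox11 and Sox12, taken by gene symbol from a table of 23420 genes, which holds 20 genes of the family in all. RNA was sequenced from 3 control and 3 mutant libraries at E14.5, embryos of mixed strain background having been frozen in embedding medium. Control embryos carried Le-Cre, a transgene in which Pax6 regulatory sequence drives Cre in the surface ectoderm, the source of the lens. Mutant embryos carried Le-Cre as well, so Cre was shared by both groups, together with Etv4-/-, Etv5fl/fl and Etv1 fl/fl. By this genotype the Etv4 mutation was present in every tissue of the mutant embryos, whereas Etv5 and Etv1 could be deleted only in cells that had made Cre. These 3 genes encode the Pea3 factors, ETS proteins that act downstream of fibroblast growth factor signalling. The comparison asks how the Sox genes stand in lens tissue of embryos with this Pea3 mutant genotype.

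Sox proteins bind the minor groove of DNA through a domain called the HMG box and bend it, usually beside a partner factor. Relatives with a similar box form subgroups: SoxB1 (Sox1, Sox2, Sox3), SoxC (Sox4, Sox11, Sox12), SoxD (Sox5, Sox6, Sox13) and SoxE (Sox8, Sox9, Sox10). In the lens, Sox2 acts with Pax6 from the placode onwards, and Sox1 is needed for gamma crystallin expression and fibre elongation. SoxC factors are known in progenitors and young neurons and in the development of the front of the eye, and SoxE and SoxD factors together drive cartilage genes.

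Library totals lay between 13364742 and 17301168 counts. Values are given as CPM (counts scaled to library size) by the TMM method of edgeR, and 1 count stood for between 0.0508 and 0.0825 CPM. Crystallin genes took between 19.5% and 37.6% of the counts, and 12 retinal markers summed to between 0.577 and 1.53 CPM. Etv1 stood between 45.4 and 70.7 CPM in controls and between 21.6 and 29.0 CPM in mutant libraries, Etv5 between 168.2 and 245.5 CPM and between 82.9 and 116.2 CPM, and Etv4 between 2.13 and 3.21 CPM and between 3.71 and 4.92 CPM. The deleted exons are not named in the labels, so these counts do not check the genotypes. Mutant library 1 differed in sex from the rest, with 711 counts of Xist against at most 3 in any other library. It therefore did not come from the same embryo as mutant library 2 or 3. Whether the other libraries are of different embryos is not stated in the labels. The p-values measure the spread between libraries, which may be technical in part. In tissue RNA, fewer cells of a type and less RNA per cell cannot be told apart.

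The start regions of Sox2 and Sox4 are shown because these 2 genes had the widest differences after Sox9, in opposite directions. This order is among the members with at least 10 counts in every control library. RefSeq promoter windows matched 8 of the 9 members, all but Sox9, and Sox3 had no window either. Each sequence below gives the 250 bases before the annotated start in GRCm38.p6, another build than the authors' mm9, with a CCAAT-box match, CCAATCA read on the reverse strand, in capitals. The Sox2 stretch is chr3:34649745-34649994 on the plus strand and the Sox4 stretch chr13:28953700-28953949 on the minus strand.
Sox2: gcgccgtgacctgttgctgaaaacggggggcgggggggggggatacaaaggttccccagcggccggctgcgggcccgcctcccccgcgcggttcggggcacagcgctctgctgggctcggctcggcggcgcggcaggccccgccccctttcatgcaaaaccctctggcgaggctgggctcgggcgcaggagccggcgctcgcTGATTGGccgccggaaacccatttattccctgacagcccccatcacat
Sox4: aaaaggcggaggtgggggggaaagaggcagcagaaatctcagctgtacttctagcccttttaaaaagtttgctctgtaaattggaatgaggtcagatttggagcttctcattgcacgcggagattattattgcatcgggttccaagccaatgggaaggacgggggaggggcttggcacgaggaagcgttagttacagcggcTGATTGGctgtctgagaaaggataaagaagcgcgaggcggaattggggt

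The match began 48 bases before the start of Sox2 and 49 bases before that of Sox4. CCAATCA, searched on both strands and chosen after these sequences had been read, was present in 2 of 13 member windows and in 7.82% of all 32851 windows of 300 bases and 9.96% of those of tested genes. Of the 13 member windows 6 belong to Sox6 alone. The exact ETS motif CCGGAAG, on both strands, was in 0 of 13 member windows, none of them of Sox9. It was in 8.86% of all windows and 17.3% of the 11820 windows of tested genes. In the window of Sox21, a SoxB2 gene, it began 242 bases before the start. The exact Sox motif ACAATGG was in 1 member window, that of Sox5, and in 3.66% of all windows and 2.06% of those of tested genes. Only these letters were searched, so shorter or differing ETS and Sox sites in the windows, such as those with GGAA alone, were not counted. None of the 3 motifs contains another, and a match describes these windows only.

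All 9 members passed the filter on low counts. Of these, 1 passed a Benjamini-Hochberg adjusted p of 0.05 in edgeR's quasi-likelihood test over 12257 genes, where 2.22% of genes passed. This was Sox9, which rose 4.07-fold in the mutant libraries, where 1.14% of all genes rose and 1.08% fell. Sox2 had a mean 3.86-fold lower and Sox4 one 1.96-fold higher without passing, and the mean of Sox1 was 1.23-fold higher. The groups were apart in CPM, with no overlap, for 3 members, Sox1, Sox2 and Sox9, against 22.7% of all tested genes. The median log2 fold change of the members was -0.02, beside 0.00 over all tested genes. Among relatives outside the member list, Sox3 rose.

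**Figure D1:**
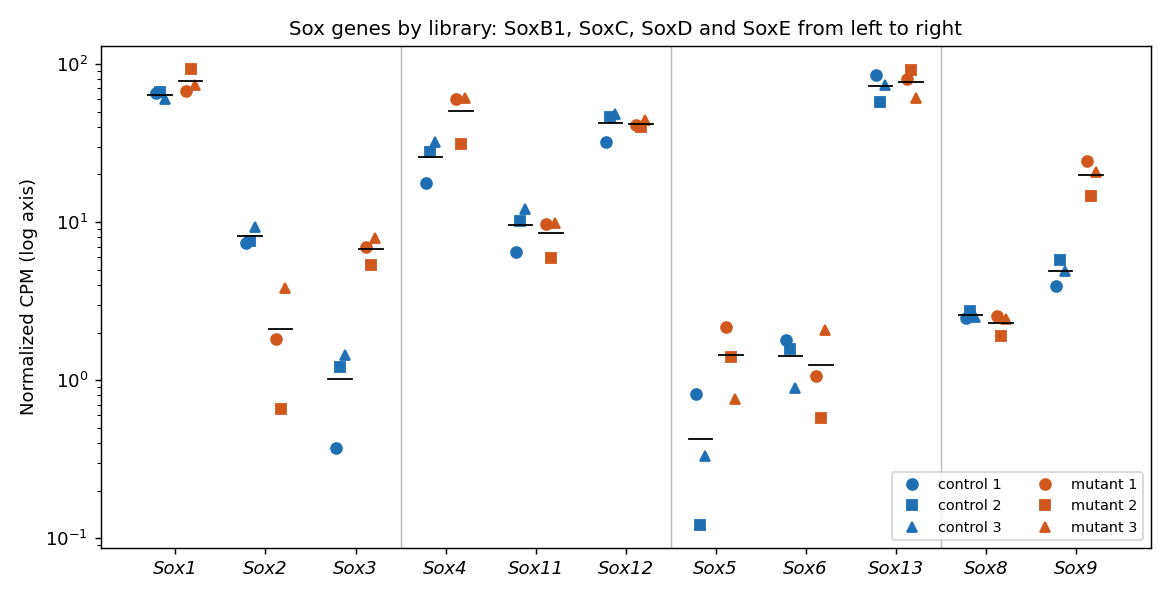
Normalized CPM on a log axis for 11 Sox genes in each of the 6 libraries, grouped as SoxB1, SoxC, SoxD and SoxE; marker shape gives the replicate number and black lines the group means. Sox9 and Sox3 stood higher in all 3 mutant libraries and Sox2 lower, while Sox8, Sox11, Sox12 and Sox13 overlapped between groups.

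Levels of different genes were compared per kilobase of exon, the merged exon length being taken from GENCODE M21. Sox1 was the highest member in control libraries at 13.2 CPM per kb ± 0.749 (SD, n = 3), above Sox12 at 7.20, 10.4 and 10.9 CPM per kb in controls 1, 2 and 3, Sox4 at 5.38 ± 1.54 and Sox2 at 3.95 ± 0.527 CPM per kb (SD, n = 3). Control values of Sox1 did not overlap those of Sox12, and those of Sox12 did not overlap those of Sox4, whereas Sox4 and Sox2 overlapped. Sox9 stood at 1.18 ± 0.219, Sox11 at 1.15 ± 0.349 and Sox8 at 0.823 ± 0.0471 CPM per kb (SD, n = 3), each overlapping its neighbour in this order. Sox6 and Sox5 were lowest, at 0.0957 ± 0.0320 and 0.0296 ± 0.0250 CPM per kb (SD, n = 3). In mutant libraries Sox9 reached 4.81 CPM per kb ± 1.17 (SD, n = 3), above Sox2 at 1.02 ± 0.776 (SD, n = 3), so that these genes changed places in the order. The lengths are not those of the authors' own annotation, and the isoforms of Sox5 and Sox6 make their merged lengths long.

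**Figure D2:**
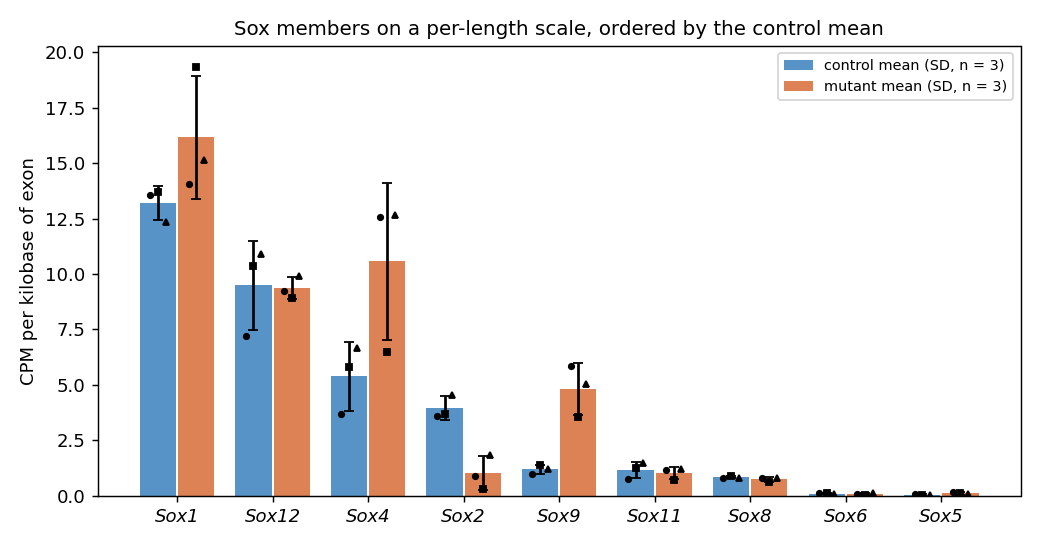
CPM per kilobase of exon for the 9 members, ordered by the control mean; bars are means of 3 libraries with SD, and black marks are single libraries. Sox1 leads in both groups, Sox9 lies below Sox2 in control and above it in mutant libraries, and Sox5 and Sox6 are near the bottom of the scale.

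Among the SoxB1 genes, Sox1, the most abundant, did not pass, the less abundant Sox2 was lower without passing, and Sox3 rose. Sox1 stood at 65.5, 66.3 and 59.6 CPM in control libraries 1, 2 and 3 and at 68.0, 93.3 and 73.2 CPM in mutant libraries 1, 2 and 3. The mutant values lay just above the control values, and the difference, 0.29 ± 0.15 on the log2 scale (SE), did not pass (edgeR adjusted p = 0.389).

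Sox2, the partner of Pax6 in early lens cells, stood at 7.40, 7.59 and 9.37 CPM in the controls and at 1.83, 0.660 and 3.82 CPM in the mutants. Every mutant library lay below every control library, and the mutant libraries were spread widely, mutant library 2 holding 8 counts and mutant library 3 holding 70. Sox2 reached 10 counts in 3 of 3 control and 2 of 3 mutant libraries, so its control values were needed for it to be tested. The log2 fold change was -1.92 ± 0.54 and did not pass (SE, edgeR adjusted p = 0.124). Without mutant library 3 it was -2.66 (edgeR adjusted p = 0.0942), and over all fits without single libraries it lay between -2.66 and -1.53. DESeq2 and limma voom called it lower, at adjusted p = 0.0106 and 0.0232, while calling 6.7% and 6.54% of all genes. In the authors' deposited table, where 6.11% of genes passed, its log2 fold change was -1.74 (adjusted p = 0.00983).

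Sox2ot, a noncoding transcript within whose span Sox2 lies, fell in the mutant libraries. It stood at 143.8, 153.7 and 190.7 CPM in the controls and at 80.7, 59.8 and 66.4 CPM in the mutants. The groups were well apart, with a log2 fold change of -1.24 with a standard error of 0.17 (edgeR adjusted p = 0.00833). The call was lost without mutant library 3 (log2 fold change -1.21, edgeR adjusted p = 0.0626). Sox2 and Sox2ot lie on the same strand and share 0 exon bases in GENCODE M21. There were 0.0491 to 0.0515 counts of Sox2 for each count of Sox2ot in control libraries, and 0.0227, 0.0110 and 0.0574 in mutant libraries 1, 2 and 3, so the ratio was steady in controls and unequal in mutants.

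Sox3, the X-linked SoxB1 gene, rose. It was named with the family and is no member. Sox3 reached 10 counts in 2 of 3 control and 3 of 3 mutant libraries, so its mutant values were needed for it to be tested. Control library 1 held 5 counts of Sox3, so ratios to it in that library are uncertain. It stood at 0.374, 1.21 and 1.44 CPM in the controls and at 7.01, 5.36 and 7.96 CPM in the mutants, with no overlap. Its log2 fold change was 2.72 with a standard error of 0.50 (edgeR adjusted p = 0.0313). Its call did not survive leaving out control library 2 or 3 or mutant library 1 or 3, over which the log2 fold change lay between 2.59 and 3.05. In the authors' deposited table the value of Sox3 was 2.48 (adjusted p = 8.3e-06). Sox2 counts exceeded those of Sox3 by 19.8, 6.25 and 6.50 times in control libraries, whereas in mutant libraries the ratio of Sox2 to Sox3 counts was 0.261, 0.123 and 0.479. The summed CPM of Sox1, Sox2 and Sox3 was 72.9 ± 2.33 in control and 87.0 ± 11.4 in mutant libraries (SD, n = 3). Sox21, which encodes a SoxB2 factor that counteracts SoxB1 proteins on shared sites, stood at 0.523, 0.121 and 0.610 CPM in the controls and at 2.99, 2.64 and 2.18 CPM in the mutants. The log2 difference of 2.62 ± 0.65 (SE) missed the threshold (edgeR adjusted p = 0.0872), and Sox21 was called by DESeq2 (adjusted p = 0.00683) and limma voom (log2 fold change 3.397, adjusted p = 0.0201). Sox21 passed the filter on low counts through its mutant libraries. In the authors' deposited table its log2 fold change was 2.20 (adjusted p = 0.0065). Exons of Sox21 share 713 bases with Gm4675, a long noncoding gene on the opposite strand with no row of its own. The library kit named in the labels does not mark strand.

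**Figure D3:**
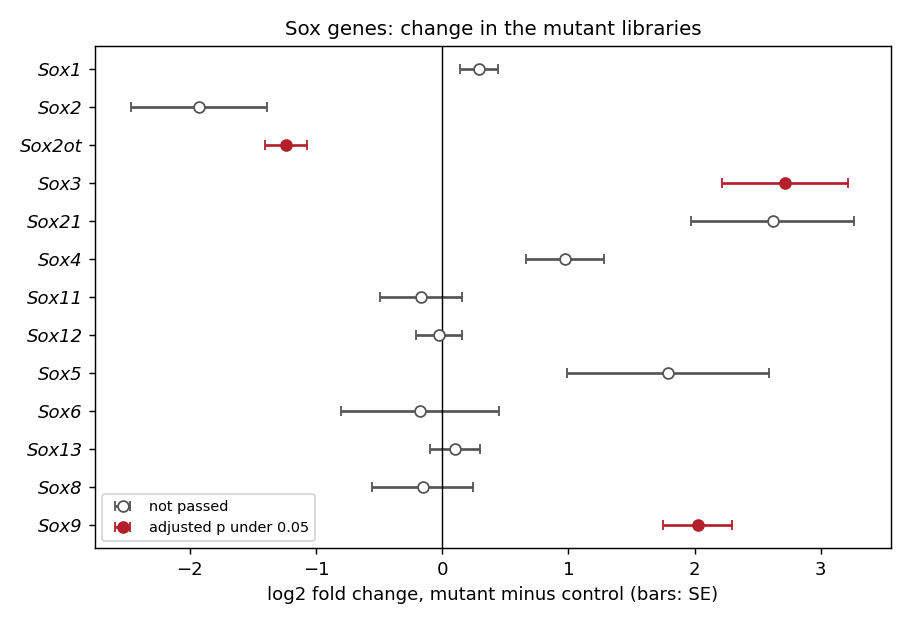
Log2 fold change of mutant over control libraries from edgeR for 13 Sox genes and transcripts, with standard errors; filled red points passed an adjusted p of 0.05. Sox9 and Sox3 rose and Sox2ot fell, and the open points did not pass.

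Of 20 lens transcription factors and regulators listed as acting beside Sox proteins, 18 were tested. Of these 1 rose, 1 fell and 16 did not pass, where 2.22% of all tested genes passed. Their median log2 fold change was -0.05. For Pax6, chosen after seeing its values, the log2 fold change was 0.15 ± 0.18 (SE), and its sign turned without control library 1 (-0.01). Mab21l1, a gene needed for lens growth, rose from a mean of 171.8 ± 16.4 CPM to one of 412.4 ± 19.9 CPM (SD, n = 3 each, edgeR adjusted p = 0.00196). Gata3, a fibre cell factor, fell (log2 fold change -1.23), a call lost without control library 2 or mutant library 3.

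Gamma crystallin genes, among them known Sox1 targets, had negative log2 fold changes in 8 of 8 cases, with a median of -0.97, and none passed in edgeR. For Crygs the value was -0.01 ± 0.19 (SE). Over all tested genes 50.2% were positive. The summed CPM of the list was 84529, 55286.6 and 29101.2 in control and 25404, 51163.4 and 14627.5 in mutant libraries 1, 2 and 3. Genes that vary together do not give 8 separate observations. The lowest p was that of Crygf, from a mean of 1071 ± 542 CPM to one of 160.2 ± 121 CPM (SD, n = 3 each, edgeR adjusted p = 0.0923). An unadjusted p under 0.05 was found for 1 gene in edgeR, and 1 each was called with DESeq2 and with limma voom. In other edgeR fits 1 was called with the replicate block, 2 with the crystallin share as a covariate and 1 without mutant library 2. Crygf had a log2 fold change of -2.74, which was -2.92 with the block (edgeR adjusted p = 0.0144), -3.50 without mutant library 2 and -1.62 with the S phase mean as a covariate. The gamma crystallin genes Cryga to Crygf are close copies, which makes their single values uncertain. Sox1 RNA was not lower in any of the mutant libraries. Sox1 protein was not measured, and the part of Sox1 in the crystallin differences was not tested. The 8 alpha and beta crystallin genes were also all negative, with a median of -0.85, and Crybb2 fell, at -2.19 (edgeR adjusted p = 0.0114), a call that needed control libraries 2 and 3 and mutant library 3. Of 9 genes known as SoxB1 targets in progenitors, 7 were tested, and Jag1, a Notch ligand gene, fell from a mean of 377.2 ± 44.1 CPM to one of 173.4 ± 31.9 CPM (SD, n = 3 each, edgeR adjusted p = 0.0126), while 6 did not pass. The Jag1 call was lost without mutant library 1 or 3 and with the replicate block (log2 fold change -1.13, edgeR adjusted p = 0.0753). Nes, the gene of the progenitor filament nestin, had a log2 fold change of 0.38 with a standard error of 0.23 (edgeR adjusted p = 0.449), and Fgf4 and Utf1 had 0 counts in every library.

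None of the SoxC genes passed in edgeR. Sox4 stood at 17.6, 27.9 and 31.9 CPM in the controls and at 60.3, 31.1 and 60.6 CPM in the mutants. Mutant libraries 1 and 3 lay at about the same high level, and mutant library 2 lay within the control range. With a log2 fold change of 0.97 ± 0.31 (SE), the difference did not pass (edgeR adjusted p = 0.176). Sox4 passed without mutant library 2, at 1.23 (edgeR adjusted p = 0.0325), and was called by DESeq2 (adjusted p = 0.0380) and limma voom (adjusted p = 0.0383). In the authors' deposited table, where 6.11% of genes passed, its log2 fold change was 0.94 (adjusted p = 0.0384). Exons of Sox4 share 2616 bases with Gm26735, a long noncoding gene on the opposite strand that has no row of its own here, and the library kit named in the labels does not mark strand.

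Sox11 stood at 6.43, 10.2 and 12.1 CPM in the controls and at 9.70, 5.94 and 9.92 CPM in the mutants, overlapping throughout. Sox12, the most abundant SoxC gene of control libraries, stood at 32.1, 46.2 and 48.4 CPM in the controls and at 41.2, 39.7 and 44.0 CPM in the mutants. All mutant values of Sox12 fell inside the control range. Their log2 fold changes were -0.17 ± 0.32 and -0.02 ± 0.18 (SE, edgeR adjusted p = 0.843 and 0.966).

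The ratio of Sox4 to Sox11 varied little within each group and was higher in every mutant library. There were 2.73, 2.73 and 2.63 counts of Sox4 for each count of Sox11 in control libraries and 6.22, 5.24 and 6.11 in mutant libraries. On this ratio, chosen after the values were seen and not tested, mutant library 2 lay with the other mutant libraries. Sox4 against Sox12 gave 0.548, 0.603 and 0.659 in control and 1.46, 0.784 and 1.38 in mutant libraries. Of 6 genes known as SoxC targets in neurons, 4 were tested, and none passed in edgeR, with 0 at an unadjusted p under 0.05, nor with DESeq2 (0) or limma voom (0). Tead2, a partner of YAP and the most abundant of them, had a log2 fold change of 0.50 with a standard error of 0.28 (edgeR adjusted p = 0.439).

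The Sox4 values moved with S phase genes across libraries. Averaged over 28 S phase genes, log2 CPM came to 3.85, 5.11 and 5.27 in control and 6.22, 5.18 and 6.25 in mutant libraries, in the same library order as the Sox4 values, and mutant library 2 lay with controls 2 and 3 on both. With that mean as a covariate, the log2 fold change of Sox4 was 0.16 (edgeR adjusted p = 0.794), that of Sox3 1.88 (edgeR adjusted p = 0.0551), that of Sox9 1.54 (edgeR adjusted p = 0.0161) and that of Sox2 -2.73 (edgeR adjusted p = 0.0357). The covariate itself differs between groups. Log2 fold changes were positive for all 28 S phase genes. In edgeR 1 of them, Mcm2, rose, a call lost with the replicate block and without control library 2 or mutant library 1 or 3. The unadjusted p was under 0.05 for 20 of the 28, beside 16.2% of all tested genes, while DESeq2 called 9 and limma voom 5. These genes vary together across libraries and do not give 28 separate observations. Of 18 tested fibre genes 4 fell, a count that was 2 with the replicate block, 1 without control library 2, 2 without mutant library 1 or 3 and 7 in the fit on crystallin share. Of 12 lens epithelial genes none passed in edgeR, where the unadjusted p was under 0.05 for 2, while DESeq2 called 2 and limma voom 1. With the S phase mean as a covariate 6 epithelial genes were called lower, and with the crystallin share 5. The epithelial median log2 fold change was -0.61. With the crystallin share as the covariate, the log2 fold change of Sox4 was 0.60 (edgeR adjusted p = 0.0729). That share was 37.6%, 30.2% and 21.8% in control and 21.7%, 32.2% and 19.5% in mutant libraries 1, 2 and 3. The part of cell cycle activity or of tissue make-up in the Sox4 difference was not tested.

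**Figure D4:**
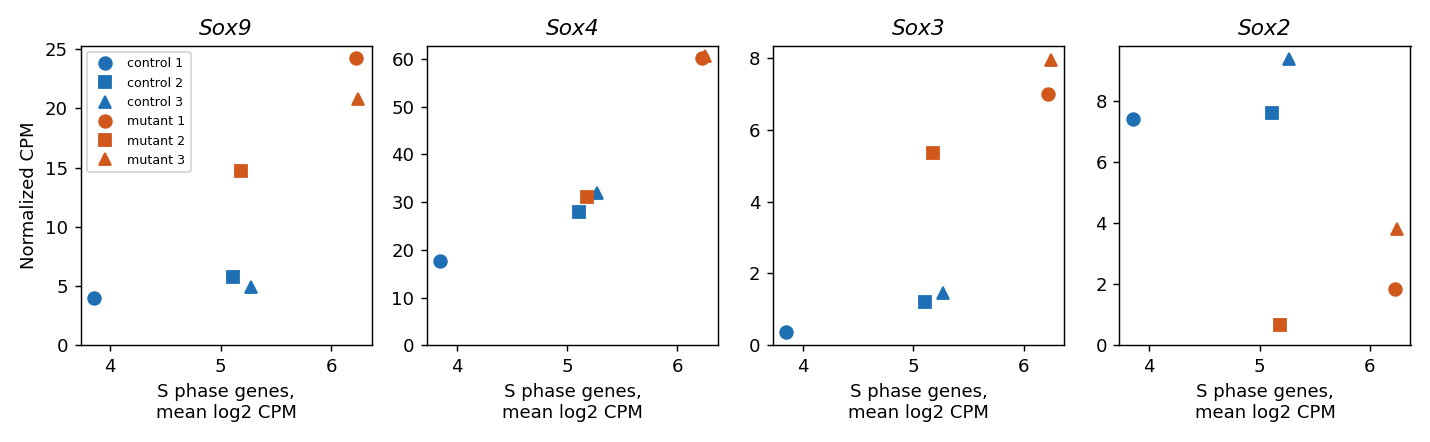
Normalized CPM of Sox9, Sox4, Sox3 and Sox2 (vertical axes from 0) against the mean log2 CPM of 28 S phase genes in each of the 6 libraries. At the S phase level of 5.11 to 5.27 shared by control libraries 2 and 3 and mutant library 2, Sox4 was nearly equal, Sox9 and Sox3 were higher in the mutant library and Sox2 was lower.

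Of the SoxE members, Sox9 rose and Sox8 did not pass. Sox9, a regulator of progenitor states and of cartilage, gonad and gland development, stood at 3.96, 5.77 and 4.93 CPM in the controls and at 24.3, 14.7 and 20.8 CPM in the mutants. Every mutant library lay far above every control library. The mean rose from 4.89 ± 0.905 CPM to 19.9 ± 4.85 CPM (SD, n = 3), or by 2.02 ± 0.27 on the log2 scale (SE, edgeR adjusted p = 0.00831). In the authors' deposited table the value was 1.96 (adjusted p = 7.3e-09). The call was lost without mutant library 1 (log2 fold change 1.86, edgeR adjusted p = 0.0529) or mutant library 3, at 1.99 (edgeR adjusted p = 0.0542).

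Sox8, its closest relative among the members, stood at 2.47, 2.73 and 2.49 CPM in the controls and at 2.54, 1.90 and 2.45 CPM in the mutants. These values overlapped, and the log2 fold change was -0.16 with a standard error of 0.40 (edgeR adjusted p = 0.889). Counts of Sox9 for each count of Sox8 numbered 1.61, 2.11 and 1.98 in control and 9.56, 7.74 and 8.47 in mutant libraries. Sox10, the SoxE gene of neural crest and glia, had between 0 and 10 counts in any library and was not tested.

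The genes closest to Sox9 in pattern were Timmdc1, Ucp2 and Col26a1, with a root mean square difference of centred log2 CPM of 0.25, 0.26 and 0.26 over the 6 libraries, among 9331 genes of at least 5 CPM. Timmdc1 and Ucp2 encode mitochondrial proteins and Col26a1 a collagen, and their log2 fold changes were 1.97, 2.42 and 2.41. Of 12 cartilage genes that SoxE and SoxD factors are known to activate, 11 were found and 5 tested, and none passed in edgeR, where the unadjusted p was under 0.05 for 1, and 0 were called with DESeq2 or limma voom. Col2a1, the classical Sox9 target, averaged 6.37 ± 4.26 CPM in controls and 2.84 ± 3.26 CPM in mutants (SD, n = 3), a log2 difference of -1.14 that was -2.71 without mutant library 1. Col9a2, of lowest p, stood at 1.51 ± 0.790 CPM and 4.87 ± 2.11 CPM (SD, n = 3; edgeR adjusted p = 0.188).

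Sox9 is also made by other cells around the lens, so their markers were summed. The 12 retinal markers summed to 0.665 to 1.40 CPM in controls and 0.577 to 1.53 CPM in mutants, with Six6, Crx, Vsx1 and Nrl at 0 counts. The 5 cartilage markers found summed to 1.83 to 10.3 CPM and 0.907 to 7.01 CPM, the 12 mesenchymal markers to 53.1 to 156.8 CPM and 95.3 to 170.5 CPM, and the 7 pigment cell markers to 3.94 to 9.12 CPM and 3.11 to 6.51 CPM. Most of the mesenchymal sum was Pdgfra, which lens cells also express. Of these 12 markers 5 were tested and none passed in edgeR, where the unadjusted p was under 0.05 for 2, while DESeq2 called 2 and limma voom 0. Twist1, a mesenchymal factor, stood at 0, 0.850 and 0.222 CPM in the controls and at 5.43, 1.32 and 3.49 CPM in the mutants, higher in every mutant library as Sox9 was. Col3a1, a fibrillar collagen gene, stood at 3.66, 4.98 and 0.554 CPM against 0.457, 0.577 and 0.109 CPM. Both were named after their values were seen, and their part in the Sox9 difference was not tested. Surface ectoderm markers, 10 in number, summed to 3.81 to 16.4 CPM in controls and 10.7 to 21.9 CPM in mutants, with Krt12 at 0. The 9 macrophage markers found summed to 1.77 to 10.2 CPM and 4.21 to 33.4 CPM and were highest in mutant libraries 1 and 3, as Sox9 and Sox4 were, and their part in these differences was not tested.

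The SoxD members were near the lower limit of measurement. Sox5 had 11, 2 and 6 counts in control and 43, 17 and 14 counts in mutant libraries, or 0.822, 0.121 and 0.333 CPM against 2.18, 1.40 and 0.763 CPM. Mutant library 3 lay below control library 1, and the difference, 1.79 ± 0.80 on the log2 scale (SE), did not pass (edgeR adjusted p = 0.316). Over the fits without single libraries it lay between 1.34 and 2.62, the latter without control library 1. It was 2.69 with limma voom and 2.78 with the S phase mean as a covariate, and did not pass in any of these. Sox5 reached 10 counts in 1 of 3 control and 3 of 3 mutant libraries, so it entered the test through its mutant values. Exons of Sox5 share 1330 bases with Sox5os1, an antisense gene with no row of its own, and the kit does not mark strand. Sox6 stood at 1.79, 1.58 and 0.887 CPM in the controls and at 1.07, 0.577 and 2.07 CPM in the mutants. Its values overlapped, with a log2 fold change of -0.17 with a standard error of 0.62 (edgeR adjusted p = 0.921).

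Sox13, the abundant SoxD gene of the tissue but no member, stood between 57.5 and 85.1 CPM in controls and between 60.9 and 91.6 CPM in mutants. The log2 fold change was 0.10 with a standard error of 0.20 (edgeR adjusted p = 0.845). Of 11 relatives outside the member list, 3 were tested, 3 (Sox14, Sox15 and Sry) had 0 counts in every library, and the others were under the filter. The endothelial SoxF genes Sox7, Sox17 and Sox18 summed to 1.72, 0.0607 and 0.942 CPM in controls and 0.102, 0 and 1.58 CPM in mutants, below the limits on testing.

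Of 17 genes for cofactors and modifiers of Sox proteins, 16 were tested and none passed in edgeR, where the unadjusted p was under 0.05 for 3, nor with DESeq2 (0) or limma voom (0). Their median log2 fold change was 0.04. Tle4, a Groucho corepressor gene, had a log2 difference of -0.38 ± 0.14 (SE) and did not pass (edgeR adjusted p = 0.217).

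**Figure D5:**
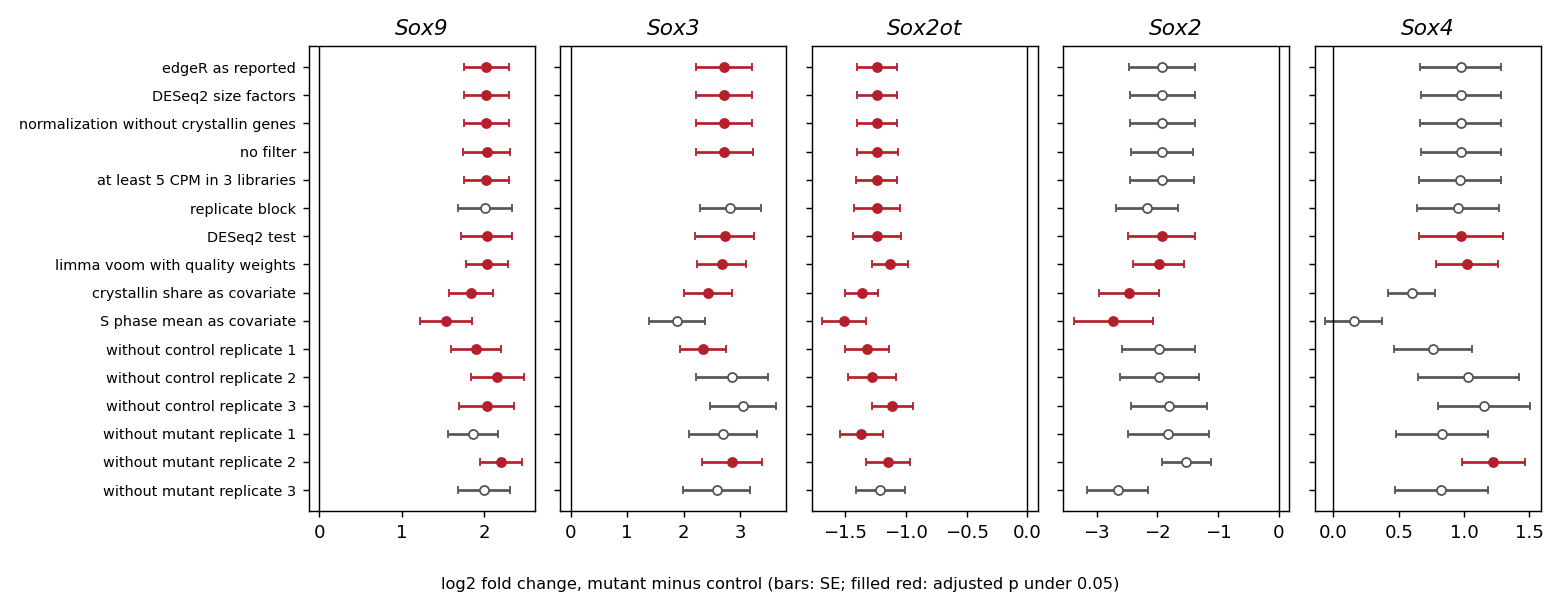
Log2 fold change with standard error of Sox9, Sox3, Sox2ot, Sox2 and Sox4 under the reported fit and 15 other settings; filled red points passed an adjusted p of 0.05, and Sox3 has no value where 5 CPM was required. All 5 kept their direction, Sox9 between 1.54 and 2.20, and Sox4 approached 0 with the S phase mean as a covariate.

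The share of all genes called differed between these settings and is the background to each call above. It was 2.31% with DESeq2 size factors, 2.28% with scaling that left out crystallin genes, 1.97% with no filter and 2.57% with the filter of 5 CPM in 3 libraries. It was 0.995% with the replicate block, 6.51% with the crystallin share and 4.78% with the S phase mean as a covariate. Leaving out control library 1, 2 or 3 gave 1.76%, 0.727% and 1.13%, and leaving out mutant library 1, 2 or 3 gave 0.783%, 3.78% and 0.723%. Group values did not overlap for 11.4% of genes in the higher and 11.3% in the lower direction, and an unadjusted p under 0.05 was found for 16.2%.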

How the data were processed

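The authors' files hold deposited raw counts by gene symbol, 1 file a library and 1 joint table, with 0 values differing. Build mm9, TopHat, Cufflinks, DESeq and bcl2fastq 1.8.4 appear, with no order, in the submitters' processing notes. How reads were counted, and by which annotation and strand setting, is not stated there. The authors' deposited comparison table gives a mean signal of normalized counts, log2 fold changes, standard errors, a test score and p-values, positive where mutant libraries are higher.

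Per the labels' protocols, cDNA was amplified with an ultra-low input kit, by PCR without molecular identifiers. After filterByExpr (count at least 10, total at least 15) and TMM scaling, groups were compared in edgeR 4.0.16 (R 4.3.3) by its robust quasi-likelihood test with no covariate, adjusted over all genes. Alternatives used DESeq2 1.42.0, limma 3.58.1, other filters and scalings, covariates and leaving out each library. Members, lists and tests were chosen with earlier results of these data known. Named genes are the 9 members, the rest of the family, up to 4 genes of lowest p per list, and the 3 genes most like a called member. GENCODE M21 and RefSeq tables (GRCm38) gave lengths, overlaps and promoters. Some genes that this rule names are not reported here.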

Additional observations from a re-analysis of the deposited data

How the results depend on the processing

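The count of Sox members called was 1 and became 0 with a replicate block, 3 with DESeq2, 3 with limma voom, 2 with the crystallin share and 2 with the S phase mean as a covariate, and lay between 0 and 2 when single libraries were left out. Over the whole table the count of 272 became 122 with the replicate block, 821 with DESeq2, 801 with limma voom, 798 with the crystallin share and 586 with the S phase mean, and lay between 91 and 479 without single libraries. Of the genes in the context lists 9 were called, against 5 with the replicate block, 24 with DESeq2, 20 with limma voom, 30 with the crystallin share and 16 with the S phase mean, and between 3 and 18 without single libraries. With the replicate block Sox9 had a log2 fold change of 2.01 (edgeR adjusted p = 0.0513) and Sox3 one of 2.83 (edgeR adjusted p = 0.0866). Libraries of the same number share only a number: the correlations of their deviations from group means were -0.25, -0.12 and 0.20. The causes of these changes were not tested.

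Signs turned for small differences. Over the fits without single libraries the log2 fold change lay between -0.76 and 0.15 for Sox6, -0.39 and 0.035 for Sox11, -0.19 and 0.086 for Sox12, -0.039 and 0.25 for Sox13 and -0.014 and 0.29 for Pax6. With the S phase mean as a covariate it was -0.25 for Pax6 and -0.21 for Tead2, and with the crystallin share -0.0059 for Pax6. Of 518 single-gene values over 15 alternatives, 13 turned sign. Depth limits Sox5, Sox6 and Sox10.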

Other observations

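Among the 10 nearest tested genes in gene order (5 on either side where present), Sox9, Sox3, Sox4, Sox5, Sox6, Sox8, Sox11, Sox12 and Sox13 had 0 called neighbours. Sox2 had 1, its host transcript Sox2ot. Sox1 had 1, Rab20, and Sox21 had 1, the FGF feedback gene Spry2. Together 3 of 120 neighbours were called, or 2.5%, beside 2.22% of all tested genes. The genes closest to Sox4 in pattern, named after their values were seen, were the replication protein gene Rpa2, the tubulin-binding protein gene Stmn1 and Dgkb, with root mean square differences of 0.09, 0.10 and 0.10 in centred log2 CPM over 6 libraries.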
